A study of Homo sapiens with 4 samples.

Results

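The genes described here encode the proteins of the mitochondrial ribosome (mitoribosome). They were chosen by name: protein-coding genes whose symbol on the array begins with MRPL or MRPS and a number, together with DAP3, PTCD3 and CHCHD1, which encode small-subunit proteins under older names. This gave 77 of the 21448 transcript clusters tested, where a transcript cluster is an array probe set that summarises the signal of one gene locus. The large subunit had 49 members and the small subunit 28. Of the 80 RefSeq genes that meet the rule, MRPL45, MRPL53 and MRPS6 were not analysed here, since the annotation names no transcript cluster for them. MRPS30 and MRPS18A were counted with the large subunit, where their proteins sit despite the S in their names.

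Expression was measured on 4 one-colour arrays of SUIT2 cells, a human cell line. Control cells had received phosphate-buffered saline for 24 h (n = 2 arrays), and treated cells had received fb-PMT at 30 µM for 24 h (n = 2 arrays). The compound is a thyroid hormone analog designed to occupy a receptor site on integrin αvβ3, and the study asked how it changes transcription of genes on which the mitochondria of cancer cells depend. No genetic modification is named in the labels, all arrays come from the same line, and nothing says that the replicates were separate cultures, so the spread between them may be technical.

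The labels describe SUIT2 as glioblastoma, whereas the line is known as a pancreatic carcinoma line. Of 5 epithelial markers 4 were above the array's negative controls on all 4 arrays, with KRT8, a keratin of simple epithelia, at a log2 value of 16.44 in the control mean, and CDH1 was below them. All 4 glial markers (GFAP, OLIG2, S100B and SOX10) were below the negative controls on every array. The fibroblast and leukocyte lists each had 1 of 3 markers above them, COL1A2 and CD68, while the collagen gene COL1A1 and the leukocyte surface gene PTPRC were below. Array medians over all transcript clusters were 6.27 to 6.28.

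Mitochondria translate the few messages of their own genome, which encode core parts of the complexes that respire and make ATP, on a ribosome made of mitochondrial rRNA and proteins that are all encoded in the nucleus. The small subunit binds the messenger RNA and decodes it, and the large subunit joins the amino acids and releases the chain at the inner membrane. Many mitoribosomal proteins have bacterial counterparts, and others were added during the evolution of mitochondria.

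Promoters of 69 members were matched in RefSeq (GRCh38.p14), as windows of 300 bases from 250 bases before to 50 bases after each start site. The choice of members did not use these windows. The motifs below were picked from a wider search after their shares were seen, so the shares describe the windows and are not a test. The letters CCGGAAG, the core recognised by ETS-family factors such as GABPA, were present on either strand in the windows of 29 members (42%), against 16.5% of 15842 protein-coding genes. AAGATGGCG, a YY1 motif, was present in 14 members (20.3%), against 3.21% of all genes, and in 11 of these 14 members it lay wholly after the start site. The NRF1 core TGCGCATG was in 5 members (7.25%) and 3.3% of all genes, a longer NRF1 motif with 1 free base in 8 members (11.6%) and 9.66% of all genes, and the E-box CACGTG in 8 members (11.6%) and 10.9%. The TATA box letters TATAAA were in 3 members (4.35%) against 12.4%, the SP motif GGGCGG in 59.4% against 64.3%, CCAAT in 34.8% against 42.1%, and the CRE TGACGTCA in 1.45% against 3%. Both strands were searched, a gene counted once however many start sites it had, the 2 NRF1 motifs can overlap each other, and matches of other motifs may overlap too. A match is a description of these letters and not a measured binding site.

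The stretches before the start site are shown for members on which the results below turn: MRPS25, MRPL38, MRPL30, MRPS18C and MRPS23, which were among the lowest with fb-PMT in their subunit, and MRPS11, which was higher. Each is printed 5′ to 3′ on the gene's strand and ends at the base before the start. Capitals mark a match to any of the 9 motifs within the printed stretch, and a motif counted above may lie elsewhere in the window. The positions are chr3:15065316-15065465 (minus strand) for MRPS25, chr17:75904885-75905034 (minus) for MRPL38, chr2:99181059-99181183 (plus) for MRPL30, chr4:83455908-83456057 (plus) for MRPS18C, chr17:57850045-57850194 (minus) for MRPS23 and chr15:88467558-88467707 (plus) for MRPS11.
MRPS25: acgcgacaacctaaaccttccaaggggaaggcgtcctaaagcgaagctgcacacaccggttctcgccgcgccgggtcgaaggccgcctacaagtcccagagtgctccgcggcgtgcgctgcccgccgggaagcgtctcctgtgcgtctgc
MRPL38: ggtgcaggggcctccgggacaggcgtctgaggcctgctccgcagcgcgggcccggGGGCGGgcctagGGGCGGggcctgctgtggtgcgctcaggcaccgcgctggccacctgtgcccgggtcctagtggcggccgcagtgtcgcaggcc
MRPL30: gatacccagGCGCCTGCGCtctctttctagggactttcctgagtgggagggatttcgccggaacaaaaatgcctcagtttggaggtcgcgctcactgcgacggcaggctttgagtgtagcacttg
MRPS18C: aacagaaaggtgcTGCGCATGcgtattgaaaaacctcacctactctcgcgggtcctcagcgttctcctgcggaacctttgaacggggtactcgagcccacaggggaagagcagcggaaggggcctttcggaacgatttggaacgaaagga
MRPS23: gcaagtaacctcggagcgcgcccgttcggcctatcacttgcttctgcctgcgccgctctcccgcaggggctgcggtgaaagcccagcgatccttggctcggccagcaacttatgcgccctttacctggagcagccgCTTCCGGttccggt
MRPS11: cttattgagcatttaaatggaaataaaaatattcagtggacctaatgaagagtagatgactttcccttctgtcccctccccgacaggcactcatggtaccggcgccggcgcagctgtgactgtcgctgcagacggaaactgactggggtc
In these stretches the capitals mark SP matches for MRPL38, the longer NRF1 motif for MRPL30, the NRF1 core for MRPS18C and an ETS match for MRPS23, while MRPS25 and MRPS11 had none of the 9 motifs there.

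Most mitoribosomal genes had slightly lower log2 values with fb-PMT, and no member differed past the test. Of the 77 members 59 (76.6%) were lower and 18 higher, beside 52.7% of all transcript clusters that were lower, or 48.9% of those above the negative controls on all arrays. The members' differences (fb-PMT minus control) lay between -0.37 and 0.27 on the log2 scale. The median difference was -0.113, beside -0.0173 over all transcript clusters and 0.00601 over the 8696 above the negative controls on all 4 arrays. In limma's test 0 members passed an adjusted p of 0.05 in either direction, where 0% of all transcript clusters were called lower and 0.0979% higher, and the members' adjusted p ran from 0.446 to 0.99. At an unadjusted p under 0.05 there were 0 members either way, against 5.49% of all transcript clusters lower and 5.7% higher. Standard errors of single members were 0.144 to 0.328, and the 95% intervals of all 77 included 0.

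Counting arrays rather than tests, 28 members (36.4%) had both fb-PMT arrays below both control arrays, against a background of 22.3% of all transcript clusters and 23.1% of those above the negative controls on all arrays. The opposite pattern, with the whole fb-PMT group above the whole control group, was seen in 6 members (7.79%), against 20.2% and 26.4%. In the other 43 members the groups overlapped. Array signal from a whole culture cannot tell less RNA per cell from fewer cells that carry it.

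**Figure D1:**
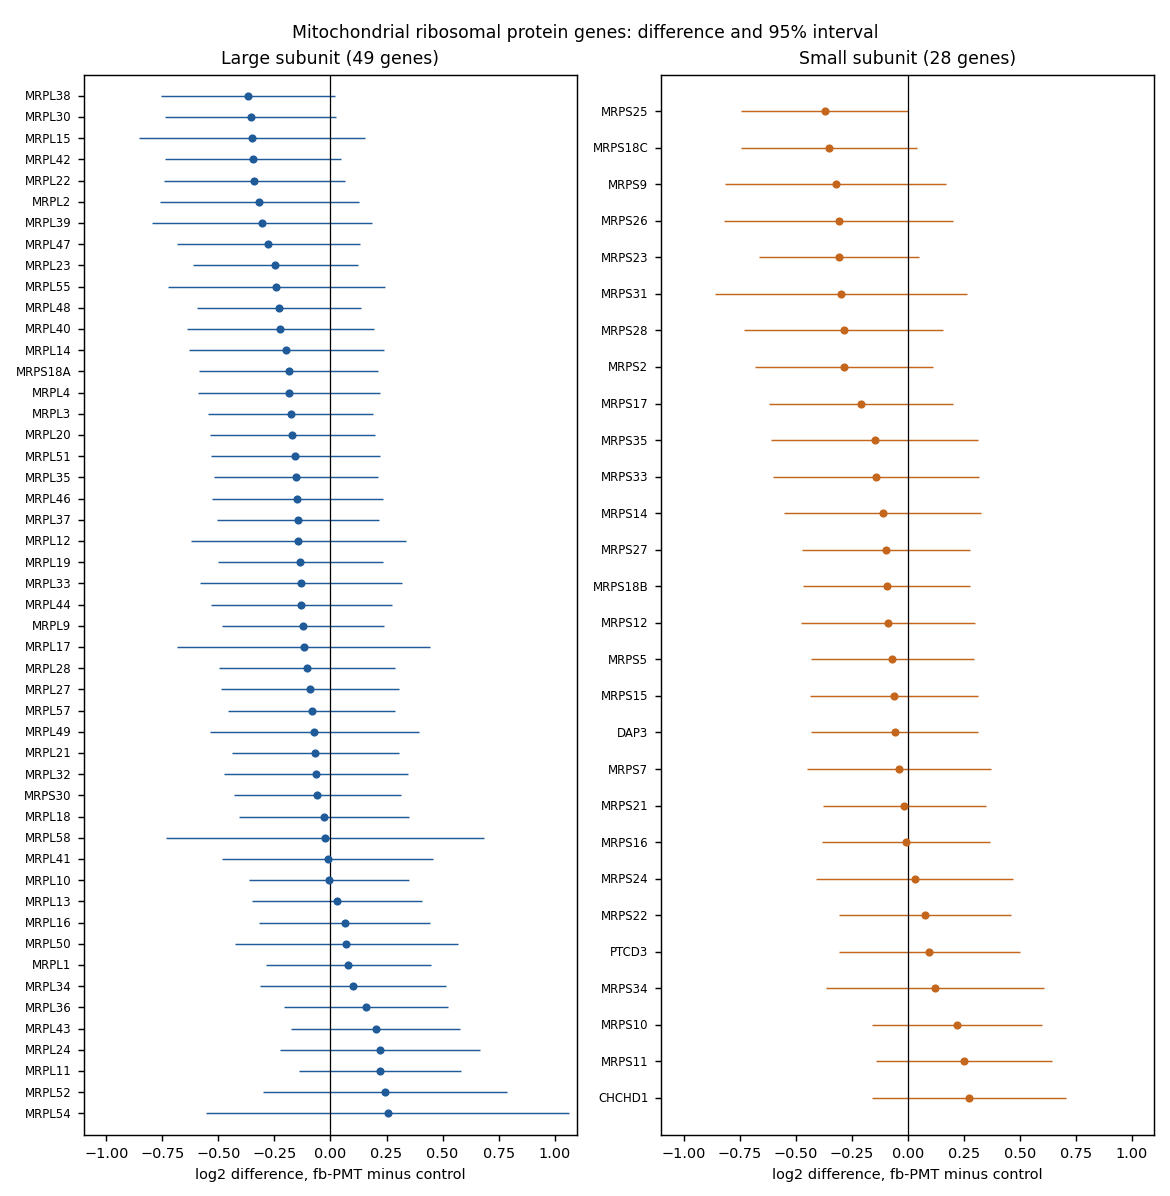
Log2 difference (fb-PMT minus control, x axis) with its 95% interval from limma for each gene (y axis) of the large subunit (49 genes, blue) and the small subunit (28 genes, orange), 2 arrays a group. Points lie between -0.37 and 0.27, most of them left of 0, and every interval includes 0.

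The 2 fb-PMT arrays did not contribute equally. Over the 77 members, replicate 1 of the fb-PMT group was below both control arrays in 47 genes and replicate 2 in 35. Over all 21448 transcript clusters these counts were 7775 (36.3%) and 7953 (37.1%). Replicate 1 was below replicate 2 in 55 of 77 members, beside 10480 of all 21448 transcript clusters. The median difference of the large subunit was -0.179 and -0.157 when fb-PMT replicate 1 was set against each control array, and -0.0484 and -0.0722 for replicate 2. For the small subunit these medians were -0.144 and -0.146 for replicate 1, and -0.0252 and -0.00853 for replicate 2. Without fb-PMT replicate 1, 49 of 77 members were lower and the median was -0.0599. Without fb-PMT replicate 2, 62 were lower and the median was -0.156. All 4 array pairs kept the medians of both subunits below 0. Over all transcript clusters the medians were below 0 too: -0.0184 and -0.00537 for fb-PMT replicate 1, and -0.0221 and -0.0087 for replicate 2. For replicate 2 the small-subunit medians were near these. Over the transcript clusters above the negative controls on all 4 arrays, the medians of the pairs were -0.0023 to 0.0205.

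**Figure D2:**
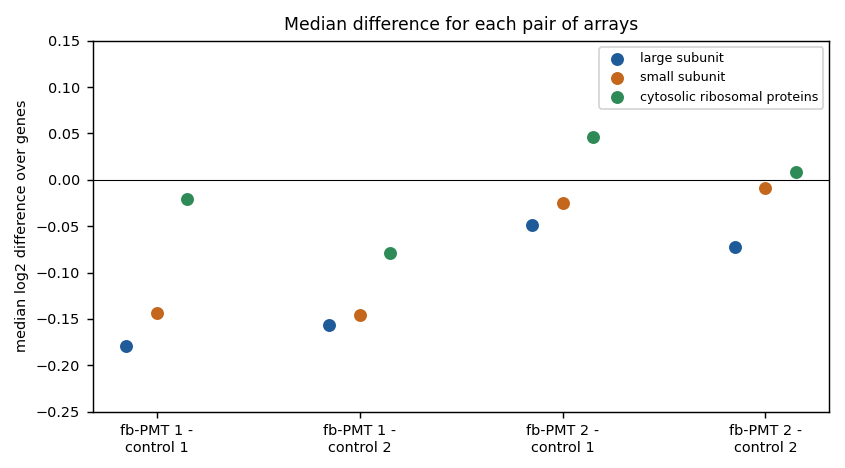
Median log2 difference over genes (y axis) for each of the 4 pairs of an fb-PMT and a control array (x axis), for the large subunit (blue), the small subunit (orange) and cytosolic ribosomal proteins (green). The mitoribosomal medians are lowest in the pairs with fb-PMT replicate 1 (-0.179 to -0.144) and nearest 0 in those with replicate 2 (-0.0722 to -0.00853).

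In the large subunit 38 of 49 genes were lower and 11 higher, with a median difference of -0.13. Both fb-PMT arrays lay below both control arrays in 20 genes (40.8%) and above them in 3 (6.12%). Over all transcript clusters these shares were 22.3% and 20.2%. The array medians were 11.06 and 11.01 in the controls and 10.78 and 10.95 with fb-PMT.

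The 5 large-subunit genes with the lowest differences were named for that rank. All had groups that did not overlap, which a low difference makes more likely, so this is no separate evidence. MRPL38, a protein of the central protuberance with no bacterial counterpart, measured 9.58 and 9.75 on the control arrays and 9.36 and 9.23 with fb-PMT. It was thus 1.29-fold lower (log2 difference -0.37, SE 0.16, adjusted p = 0.465). MRPL30, the counterpart of bacterial uL30, measured 11.06 and 11.24 in the controls and 10.78 and 10.81 with fb-PMT (-0.36, SE 0.15, adjusted p = 0.473). MRPL15, the counterpart of uL15, was at 11.67 and 11.64 in the controls, while its fb-PMT arrays were far apart at 11.06 and 11.55. Its difference of -0.35 (SE 0.20, adjusted p = 0.578) was -0.10 without fb-PMT replicate 1 and -0.59 without replicate 2. MRPL42, a protein added in mitochondria, measured 13.34 and 13.16 in the controls and 12.97 and 12.83 with fb-PMT (-0.35, adjusted p = 0.495). MRPL22, which lines the tunnel through which the chain leaves the ribosome, was at 9.79 and 9.65 in the controls and 9.49 and 9.27 with fb-PMT (-0.34, SE 0.16, adjusted p = 0.516).

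The highest differences in the large subunit among genes above the negative controls were those of MRPL11, MRPL24 and MRPL43. MRPL11 forms the base of the stalk that receives the translation factors. Its values were close within each group, 11.06 and 10.98 in the controls and 11.23 and 11.25 with fb-PMT, without overlap (0.22, SE 0.15, adjusted p = 0.616). MRPL24, at the tunnel exit, measured 11.95 and 11.68 in the controls and 11.92 and 12.16 with fb-PMT (0.22, SE 0.18), and its groups overlapped. MRPL43 was at 11.73 and 11.86 in the controls and 12.04 and 11.95 with fb-PMT, without overlap (0.20, SE 0.15, adjusted p = 0.665).

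Grouped by place in the large subunit, all 7 genes of the central protuberance, which contacts the small subunit, were lower (median -0.147), 4 of them without overlap (57.1%). Of 7 measured genes around the exit tunnel 6 were lower (median -0.246), also 4 without overlap (57.1%). Of the 4 measured stalk genes 2 were lower and 2 higher (median 0.107), with 0 lower without overlap. The higher 2 include MRPL54 (0.25, SE 0.33), which exceeded the negative controls on only 1 array of each group, so the sign of this median is uncertain. Beside these counts, 52.7% of all transcript clusters were lower and 22.3% were lower without overlap. Tests of these small groups against each other were not made, and they were written with earlier results of these data known.

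Among large-subunit members with special roles MRPL3 was lower without overlap, and the groups of the other 4 overlapped. MRPL12, which recruits translation factors to the stalk and also binds the mitochondrial RNA polymerase, measured 11.65 and 11.66 in the controls and 11.29 and 11.73 with fb-PMT. Only fb-PMT replicate 1 lay below the controls, and the difference was -0.14 (SE 0.19). MRPL3, which reaches towards the peptidyl transferase centre, was at 13.41 and 13.51 in the controls and 13.32 and 13.24 with fb-PMT, without overlap (-0.18, SE 0.15, adjusted p = 0.7). MRPL44, a protein with a ribonuclease III-like fold, measured 10.95 and 10.87 in the controls and 10.66 and 10.90 with fb-PMT, so its groups overlapped (-0.13). MRPL58 is a peptidyl-tRNA hydrolase built into the ribosome. Its control arrays, 8.44 and 9.27, enclosed both fb-PMT arrays, 8.79 and 8.87 (-0.02, SE 0.29). MRPS30 was at 13.49 and 13.64 in the controls and 13.51 and 13.50 with fb-PMT (-0.06).

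In the small subunit 21 of 28 genes were lower and 7 higher, with a median difference of -0.0902. Both fb-PMT arrays were below both control arrays in 8 genes (28.6%) and above them in 3 (10.7%), beside 22.3% and 20.2% of all transcript clusters. The array medians were 11.41 and 11.32 in the controls and 11.19 and 11.35 with fb-PMT, so at the level of the median the groups overlapped. The difference between the subunits was not tested.

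MRPS25, a protein with no bacterial counterpart, had the lowest difference of all members. It measured 10.76 and 10.68 on the control arrays and 10.29 and 10.41 with fb-PMT, which is 1.29-fold lower (log2 difference -0.37, SE 0.15, 95% interval -0.742 to 0.000449, adjusted p = 0.446). MRPS18C, the bS18 counterpart, was at 9.78 and 9.65 in the controls and 9.28 and 9.46 with fb-PMT (-0.35, SE 0.16, adjusted p = 0.489). MRPS9, the uS9 counterpart, measured 10.40 and 10.57 in the controls and 9.95 and 10.38 with fb-PMT (-0.32, SE 0.20). In MRPS9 fb-PMT replicate 1 was far lower than replicate 2, which lay just under the controls, and the difference ran from -0.54 to -0.10 when 1 array was left out. MRPS23, another protein found in mitochondria only, had close replicates, 10.32 and 10.34 in the controls and 10.04 and 10.01 with fb-PMT (-0.31, SE 0.14, adjusted p = 0.508). Its difference stayed between -0.32 and -0.29 when any 1 array was left out. MRPS31 measured 7.58 and 7.22 in the controls and 6.87 and 7.34 with fb-PMT, close to the negative controls and overlapping (-0.30, SE 0.23). Its difference was -0.06 without fb-PMT replicate 1 and -0.53 without replicate 2.

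CHCHD1, a small-subunit protein with a CHCH domain, had the highest difference of all members, at 9.33 and 9.32 in the controls and 9.43 and 9.77 with fb-PMT (1.21-fold, log2 difference 0.27, SE 0.17, adjusted p = 0.604). Its groups did not overlap, but the difference was 0.11 without fb-PMT replicate 2 and 0.44 without replicate 1. MRPS11, the uS11 counterpart near the messenger RNA exit, was at 11.90 and 11.98 in the controls and 12.08 and 12.30 with fb-PMT, without overlap (0.25, SE 0.16, adjusted p = 0.603). MRPS10, the uS10 counterpart in the head of the subunit, measured 11.66 and 11.69 in the controls and 11.81 and 11.98 with fb-PMT, also without overlap (0.22, SE 0.15).

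DAP3, a GTP-binding protein first known as a mediator of apoptosis, was at 11.92 and 11.76 in the controls and 11.78 and 11.78 with fb-PMT, so its groups overlapped (-0.06, SE 0.15). PTCD3, a pentatricopeptide repeat protein at the messenger RNA entrance, measured 11.90 and 12.04 in the controls and 11.95 and 12.18 with fb-PMT (0.10, SE 0.16). MRPS12, part of the decoding centre, was at 7.52 and 7.57 in the controls and 7.36 and 7.56 with fb-PMT (-0.09). MRPS22 measured 12.47 and 12.42 in the controls and 12.43 and 12.61 with fb-PMT (0.08). Each of these genes had overlapping groups. Of the 7 genes of the decoding centre and messenger RNA path 4 were lower and 3 higher, with a median of -0.0371.

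**Figure D3:**
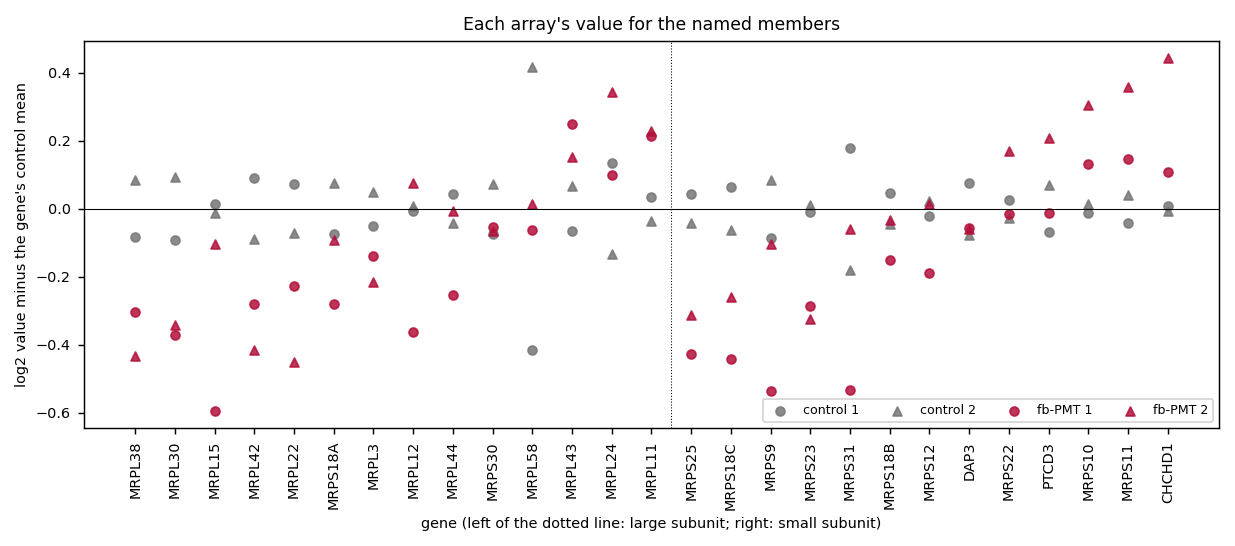
Each array's log2 value minus the gene's control mean (y axis) for the 27 named members (x axis), large subunit left and small subunit right of the dotted line, each ordered by difference. Grey marks are control arrays and red marks fb-PMT arrays, circles replicate 1 and triangles replicate 2. Red marks lie under both grey marks for genes such as MRPL38, MRPL30, MRPS25 and MRPS23, above them for MRPL11, MRPS10, MRPS11 and CHCHD1, and among them for MRPL58 and DAP3.

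The 3 paralogs of the MRPS18 family take different places: MRPS18C is the small-subunit bS18, MRPS18B a second small-subunit protein, and MRPS18A sits in the large subunit. All 3 were lower with fb-PMT. MRPS18A measured 12.31 and 12.46 in the controls and 12.11 and 12.29 with fb-PMT, without overlap (-0.19, SE 0.16). MRPS18B was at 13.52 and 13.43 in the controls and 13.33 and 13.44 with fb-PMT, with overlap (-0.09, SE 0.15).

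Over both subunits together, proteins inherited from bacteria and proteins added in mitochondria had similar medians. Of 43 measured genes with a bacterial counterpart 33 were lower, with a median of -0.104, and 16 were lower without overlap (37.2%). Of 30 genes specific to mitochondria 22 were lower, with a median of -0.114, and 10 were lower without overlap (33.3%), beside 22.3% of all transcript clusters. By subunit, the medians of the bacterial and the mitochondrial class were -0.123 and -0.106 in the large, and -0.0643 and -0.119 in the small. The shares lower without overlap were 37.9% and 44.4% in the large subunit, and 35.7% and 16.7% in the small. The remaining 4 genes, MRPL55, MRPS18A, MRPS18B and MRPS28, were not assigned to either class.

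Signal above background covered most members. On all 4 arrays 72 of 77 were above the 95th percentile of the negative controls, which was 7.15 to 7.38. MRPL52, with 0 control arrays above it, and MRPS26, with 0 fb-PMT arrays above it, have no interpretable fold. MRPL41, MRPL54 and MRPS31 were above it on at least 1 array of each group. MRPL54 had the widest spread, 7.07 and 8.05 on the fb-PMT arrays.

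Cytosolic ribosomal proteins, which work with the same chemistry outside mitochondria, gave a point of comparison at a much higher signal. Their array medians were 16.16 to 16.26, beside 11.06 to 11.27 for the members, and what this does to the size of differences was not tested. Of 46 measured genes 31 were lower and 15 higher, with a median of -0.031. Both fb-PMT arrays lay below both controls in 5 of them (10.9%) and above in 2 (4.35%), beside 22.3% and 20.2% of all transcript clusters. In limma's test 0 of these genes passed, 0 also at an unadjusted p under 0.05. The replicates of the fb-PMT group differed here too, with replicate 1 below replicate 2 in 39 of 46 genes. The part of this replicate difference in the mitoribosomal result was not tested.

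**Figure D4:**
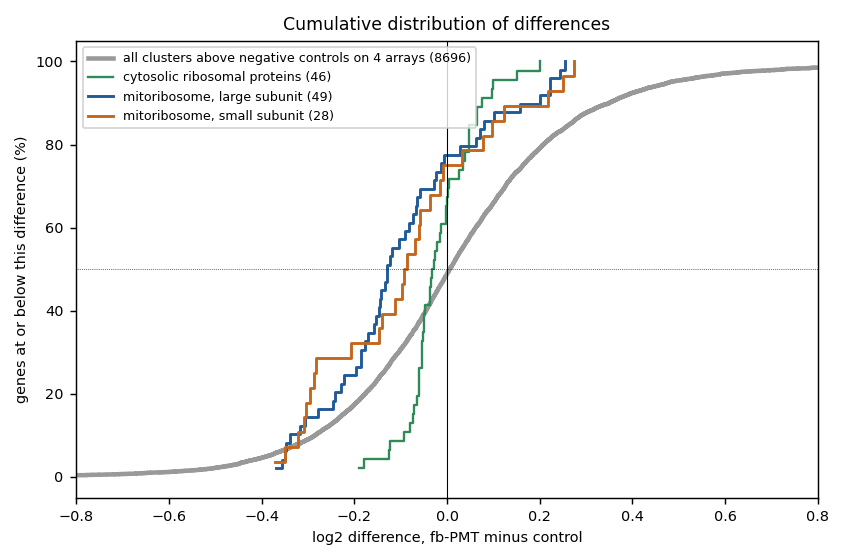
Cumulative share of genes (y axis, percent) at or below each log2 difference (x axis) for the large subunit (49), the small subunit (28), cytosolic ribosomal proteins (46) and all transcript clusters above the negative controls on 4 arrays (8696). The curves of both subunits lie left of the grey curve around its middle, with medians of -0.13 and -0.0902 against 0.00601, and span a narrower range.

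Other genes that the mitoribosome needs, taken as 4 lists, did not all share one direction. Mitochondrial transcription and RNA processing genes were lower in 77.8%, near the 76.6% of the members. The shares were 61.5% for translation factors, 61.1% for aminoacyl-tRNA synthetases and 43.5% for assembly factors, beside 52.7% of all transcript clusters. Of 13 measured translation factors and insertion factors 8 were lower and 5 higher (median -0.0656), 4 lower and 4 higher without overlap (30.8% each). The background for this list and the next 3 is 22.3% of all transcript clusters lower and 20.2% higher without overlap. OXA1L, the inner membrane insertase that receives chains as they leave the mitoribosome, measured 13.39 and 13.42 in the controls and 14.22 and 14.09 with fb-PMT. Its difference was 0.75 (SE 0.15, 1.69-fold, adjusted p = 0.233), and it stayed between 0.69 and 0.82 when any 1 array was left out. OXA1L passed with an intensity trend in the variance (adjusted p = 0.00132) and when only transcript clusters above the negative controls were tested (adjusted p = 0.0216). These 2 settings called many more genes, 403 of 21448 and 318 of 9199 transcript clusters, against 21 of 21448 in the reported test. The release factor gene MTRF1L was lowest in that list, at 9.87 and 10.14 in the controls and 9.70 and 9.72 with fb-PMT (-0.30).

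Of 18 measured mitochondrial aminoacyl-tRNA synthetases and amidotransferase subunits, which charge the tRNAs, 11 were lower and 7 higher (median -0.0598), 5 (27.8%) and 4 (22.2%) of them without overlap. Only 11 of these 18 genes were above the negative controls on all 4 arrays, so part of these counts comes from background signal. MARS2, counted as lower without overlap, exceeded the negative controls on 1 control array and 0 fb-PMT arrays. EARS2, counted as higher without overlap, exceeded them on 0 arrays. The lowest was YARS2, for tyrosine, at 10.38 and 10.22 in the controls and 9.81 and 9.99 with fb-PMT (-0.40, SE 0.16, adjusted p = 0.446). The highest was HARS2, for histidine, at 7.97 and 7.60 in the controls and 7.79 and 8.41 with fb-PMT (0.31, SE 0.26), with overlap. Its difference was 0.0043 without fb-PMT replicate 2 and 0.62 without replicate 1.

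Mitoribosome assembly factors were lower in 10 and higher in 13 of 23 measured genes (median 0.0118), 6 (26.1%) and 4 (17.4%) of them without overlap. On all 4 arrays 20 of these 23 were above the negative controls. MTERF4, counted as higher without overlap, exceeded them on 0 arrays. RPUSD4, which modifies the large-subunit rRNA, had the lowest difference (-0.27, SE 0.17, adjusted p = 0.601). YBEY, an endoribonuclease of ribosome maturation, was highest. It was below the negative controls in both control arrays (7.0 and 6.97) and above them with fb-PMT (7.39 and 7.91). Its fb-PMT mean of 7.65 was 1.27-fold above the control arrays' background threshold of 7.30, a ratio that takes no account of error. The difference was 0.66 (SE 0.21, adjusted p = 0.378), and limma's interval for it ran from 0.139 to 1.19. Without fb-PMT replicate 2 the difference was 0.40, and without replicate 1 it was 0.93. GADD45GIP1, a large-subunit protein under another name, was at 8.28 and 8.28 in the controls and 8.25 and 8.34 with fb-PMT (0.01).

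Transcription and RNA processing in mitochondria, which supply the rRNA and the messages, were lower in 14 and higher in 4 of 18 measured genes (median -0.0963), 6 of them lower (33.3%) and 0 higher without overlap. On all 4 arrays 15 of these 18 were above the negative controls. POLRMT, the mitochondrial RNA polymerase, measured 7.50 and 8.19 in the controls and 7.21 and 6.87 with fb-PMT (-0.80, SE 0.27, adjusted p = 0.392). The control arrays of POLRMT were far apart, and its difference was -1.15 without control replicate 1 and -0.46 without control replicate 2. TRMT10C, a subunit of mitochondrial RNase P that was named after its value was seen, was at 9.66 and 9.69 in the controls and 9.05 and 9.35 with fb-PMT (-0.47, SE 0.17, adjusted p = 0.408). MTPAP, the mitochondrial poly(A) polymerase, had the highest difference (0.13, SE 0.18), with overlapping groups. In these 4 lists 0 genes passed limma's test over all transcript clusters, and 5 of 72 had an unadjusted p under 0.05: POLRMT, TRMT10C and YARS2 lower (4.17%), OXA1L and YBEY higher (2.78%). Over all transcript clusters these shares were 5.49% lower and 5.7% higher.

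Many mitoribosomal genes start close to a gene that runs the other way. Among the 69 members with a RefSeq promoter, 22 (31.9%) had a protein-coding neighbour head to head within 1000 bases, against 12.3% of 15842 genes. These formed 21 distinct pairs, since MRPL46 and MRPS11 are each other's neighbour, and both genes were measured in 18. In 6 pairs both genes were lower with fb-PMT, in 2 both higher, in 9 the member lower and the neighbour higher, and in 1 the reverse. The neighbours SARS2 (beside MRPS12) and PIERCE1 (beside MRPS2) exceeded the negative controls on 0 of 4 arrays, so their directions have no interpretable fold. In the other 16 pairs both genes were lower in 5 and only the member in 8. These 8 include MRPL37, whose neighbour CYB5RL exceeded the negative controls on 0 control arrays and 1 fb-PMT array, so its fold is not interpretable either. APBA3 (beside MRPL54, both higher) exceeded them on 0 control arrays and 2 fb-PMT arrays. The neighbours' median difference was 0.142 with or without SARS2 and PIERCE1, and 0 of the 18 passed limma's test. The pairs named here were chosen after their values were seen.

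MRPL30 and MITD1, a gene of cytokinetic abscission, start 126 bases apart across the stretch printed above, and both were lower. MITD1 measured 10.02 and 10.31 in the controls and 9.57 and 10.00 with fb-PMT (-0.38, SE 0.21, adjusted p = 0.561). MRPS18C and the DNA helicase gene HELQ start 175 bases apart and went different ways. HELQ was at 7.49 and 7.69 in the controls and 8.15 and 8.03 with fb-PMT, without overlap (0.50, SE 0.16, adjusted p = 0.378), while MRPS18C was at -0.35. PTCD3 and POLR1A, the largest subunit of RNA polymerase I, start 349 bases apart. POLR1A measured 11.34 and 11.57 in the controls and 11.04 and 10.98 with fb-PMT (-0.45, SE 0.16, adjusted p = 0.412), beside 0.10 for PTCD3. MRPL46 and MRPS11 start 320 bases apart, and neither pair of groups overlapped. MRPL46 was at 11.67 and 11.81 in the controls and 11.53 and 11.66 with fb-PMT (-0.15, SE 0.15), against 0.25 for MRPS11. Differences within pairs were not tested.

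**Figure D5:**
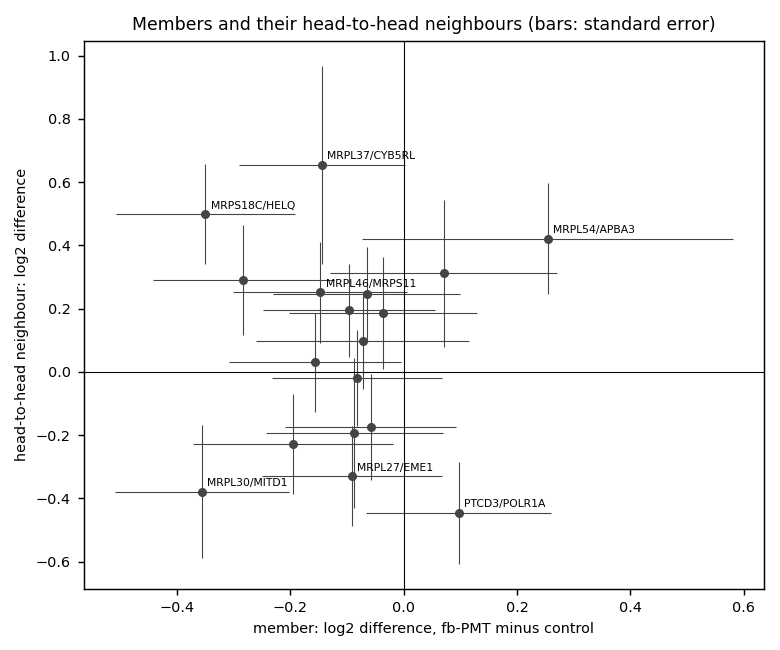
Log2 difference (fb-PMT minus control) of each measured member (x axis) against that of its head-to-head neighbour (y axis), 18 pairs, with standard errors as bars and 7 pairs labelled. The neighbours of MRPS12 and MRPS2 exceeded the negative controls on 0 of 4 arrays, and those of MRPL37 and MRPL54 on 0 control arrays. Pairs lie in all 4 quadrants, with MRPL30 and MITD1 both lower, and MRPS18C lower beside a higher HELQ.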

How the data were processed

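The authors deposited log2 values. Per the submitters' processing notes they used RMA and the program Transcriptome Analysis Console (version 4.0.1.36). Which RMA variant and which genome build were used is not stated in the labels. RMA normalizes between arrays, which removes shifts shared by most genes, and shrinks differences of dim probe sets. Of 24351 probe sets, 2903 control probe sets were left out. The platform annotation gave 1 symbol for 17709 of the 21448 transcript clusters tested, several for 0 and none for 3739. The 95th percentile of 612 negative control probe sets marked background.

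Differences (fb-PMT minus control) were fitted with lmFit and eBayes of limma 3.58.1 (R 4.3.3), with no covariate. The p-values were two-sided, with Benjamini-Hochberg adjustment over all transcript clusters and a threshold of 0.05. In 20 runs of simulated data the test recovered 11.1% of 2-fold and 89.1% of 4-fold differences, with 7.8 false calls per run. Each run put folds of 2 to 16 into a small part of the transcript clusters, with independent noise of variances drawn from the fit. Recovery depends on how many genes differ and by how much, so these shares need not hold for the real arrays. The members' differences were all below 2-fold, so 0 calls cannot show that differences of their size are absent. Exchanging labels of 2 against 2 arrays cannot give a p below 0.333. The number of arrays limits the precision: the median standard error was 0.175.

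Members and lists were chosen with earlier results of these data known. Named per subunit were the 5 largest falls and 3 largest rises above background in at least 1 group, genes of special role, and the extremes of each related list. Neighbours and TRMT10C were named after their values were seen. The alternatives were a replicate block, variance models, filters, other scaling, array weights, leaving out each array, an adjusted p of 0.1, and subunits assigned by symbol. Promoters came from RefSeq (GRCh38.p14), and the motifs were picked from a wider search after their shares were seen.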

Additional observations from a re-analysis of the deposited data

How the results depend on the processing

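No alternative called a member at an adjusted p of 0.05, higher or lower, nor at 0.1 without other changes, and both subunit medians stayed below 0 in all of them. When 1 array was left out the medians were -0.169 to -0.0742 for the large subunit and -0.114 to -0.0545 for the small. Over all transcript clusters they were -0.0198 to -0.00727. The replicate numbers mark no shared source in the labels, and same-numbered arrays deviated together with a correlation of 0.042. With the replicate number as a block 0 members were called (smallest adjusted p = 0.478), and calls over all transcript clusters went from 21 to 1.

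The count of members with an unadjusted p under 0.05, 0 as reported, was 12 with an intensity trend (11 lower, 1 higher), where the lower members were 14.3% beside 6.09% of all transcript clusters. It was 10, all lower, with robust variances as well (13% beside 6.04%), and 7, all lower, with only transcript clusters above the negative controls (9.46% of 74 members beside 7.79%). It was 3 without the lowest 30% (3.9% beside 6.07%), 3 after renewed quantile normalization (3.9% beside 5.17%) and 1 with only named transcript clusters (1.3% beside 5.67%), all lower, and 0 to 2 when 1 array was left out. The cause was not tested. Small-subunit members lower without overlap went from 8 to 14 (50%) after renewed quantile normalization, beside 22.4% of all transcript clusters. With 1 array left out they were 11 to 15 (39.3% to 53.6%) and those of the large subunit 24 to 32 (49% to 65.3%), beside 36.3% to 39.2% of all transcript clusters, since overlap is less likely with fewer arrays. The lowest of both subunits came without fb-PMT replicate 1, where the background was 37.1%. Differences near 0 changed sign when 1 array was left out: MRPL12 ran from -0.36 to 0.076, MRPL58 from -0.44 to 0.39, MRPS12 from -0.19 to 0.0145, MRPS22 from -0.0145 to 0.17, MRPS30 from -0.13 to 0.0145, DAP3 from -0.14 to 0.0184, PTCD3 from -0.014 to 0.21, MTPAP from -0.0395 to 0.29 and GADD45GIP1 from -0.0336 to 0.0567. GADD45GIP1 was also at -0.0326 after renewed quantile normalization.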
